A study of Mus musculus with 24 samples.

Results

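Apolipoproteins are the protein coat of the lipoprotein particles that carry triglyceride and cholesterol through blood, and the liver makes most of them. The 10 genes described here are the apolipoprotein genes Apob, Apoa1, Apoa2, Apoa4, Apoa5, Apoc1, Apoc2, Apoc3 and Apoe, together with Mttp, taken by gene symbol from the 55421 genes of the count table. All 10 passed the count filter and were among the 13583 genes tested. Apob is the scaffold of very low density lipoprotein (VLDL), and microsomal triglyceride transfer protein, the product of Mttp, loads lipid onto it as the particle forms in the endoplasmic reticulum. Apoa1 and Apoa2 are the main proteins of high density lipoprotein (HDL), and Apoe is the ligand through which remnant particles are taken up. Apoa5 and Apoc2 favour the breakdown of triglyceride by lipoprotein lipase, Apoc3 and Apoc1 oppose the clearance of particles, and Apoa4 rides on particles made during fat loading.

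Hepatocytes were isolated from the livers of 24 male mice by collagenase perfusion and a Percoll gradient, and their polyA RNA was sequenced. The labels give young mice as C57BL/6N of 6 months and old mice as C57BL/6J of 24 months, which means that age cannot be told apart from substrain. Each age was fed for 9 weeks either HFD (TestDiet 58Y1, 60% of energy from fat) or ND, which the labels name as a Teklad global chow, and the labels name no transgene, engineered allele or drug. This gave 4 groups of 6 mice, named by age and diet, with 3 mice of a group in each of 2 batches, except that old ND had 2 in batch 1 and 4 in batch 2. The study's article describes the ages and the ND otherwise than the labels do, and the labels are followed here.

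Total counts per mouse ran from 9200332 to 22185069, with all 6 old HFD mice (at most 13517632) below every mouse of the other groups, and levels are given as CPM, the counts of a gene scaled to a common library total, after TMM normalization. Of 10 hepatocyte markers, 9 were found in the table by the symbol listed, all with counts, and their summed level was 66228 to 168148 CPM per mouse. The labelled cell type therefore had its markers, but markers of other liver cells were also present. The summed level of 10 Kupffer cell and macrophage markers was 1.88 to 82.1 CPM in young ND and 53.1 to 1330.0 in old ND, against 15.3 to 211 in young HFD and 66.3 to 679 in old HFD. In young ND it split by batch, at 1.88 to 5.10 CPM in batch 1 and 46.9 to 82.1 in batch 2. The endothelial and stellate sums of young ND split by batch too. In the other groups the Kupffer cell sums of the batches overlapped. In RNA from a whole preparation, fewer cells of a type and less RNA per cell cannot be told apart. Mouse 4 of old ND stood apart: it had the lowest hepatocyte sum, the highest sums of Kupffer cell, endothelial, stellate, leukocyte and cholangiocyte markers in its group, and the lowest CPM of its group for 7 of the 10 genes. Mouse 2 of old HFD stood apart in another way, since its short mRNAs were high and its long mRNAs low. Relative to the mean of young ND, the median log2 deviation of tested genes with under 1000 exon bases minus that of genes with 8000 or more was 1.90 in this mouse. That difference was 0.08 to 0.64 in the other old HFD mice, -0.01 to 0.40 in old ND, 0.05 to 0.32 in young HFD and -0.17 to 0.19 in young ND. Values with the trend of exon length removed in each mouse, a fit chosen after seeing the data, are therefore given beside calls that end in that fit, and these genes range from the 537 exon bases of Apoa2 to the 13934 of Apob.

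Most of the genes lie in clusters, given here on GRCm38, the mm10 build, from the GENCODE annotation. Apoa1 (chr9:46228580-46230466, + strand), Apoc3 (chr9:46232933-46235636, - strand), Apoa4 (chr9:46240696-46243459, + strand) and Apoa5 (chr9:46268633-46271919, + strand) lie within 43.3 kb of chromosome 9. Apoc2 (chr7:19671579-19677941), Apoc1 (chr7:19689481-19692660) and Apoe (chr7:19696109-19699188) lie within 27.6 kb of chromosome 7, all on the - strand. Apob (chr12:7977648-8016835), Apoa2 (chr1:171225054-171226379) and Mttp (chr3:138089854-138144968) stand alone. Of the exon bases of Apoc2, 79.5% also belong to Gm44805, a read-through gene on the same strand, so reads of Apoc2 could be left out or shared when genes were counted. Of those of Apoa4, 69.8% lie opposite Gm10680 or Gm47528, and whether strand was used in counting is not stated. Gm10680 had 1 count over all mice and Gm47528 at most 4.0 CPM, where the median of Apoa4 was 176 CPM. The median of Gm44805 was 2.31 CPM, where that of Apoc2 was 1.805 CPM.

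Promoter sequence is shown for 3 neighbours of the chromosome 9 cluster, of which Apoa4 alone was called in young HFD, and for Apob, which fell in old HFD against young ND. RefSeq windows on GRCm38.p6, from 250 bases before to 50 after each start, were found for 8 of the 10 genes. Apoc1 and Apoc3 had no entry. Only the bases before both the RefSeq and the GENCODE start are printed, 5′ to 3′ on the + strand, and capitals mark matches to the motifs named below.
Apoa1, chr9:46228380-46228579: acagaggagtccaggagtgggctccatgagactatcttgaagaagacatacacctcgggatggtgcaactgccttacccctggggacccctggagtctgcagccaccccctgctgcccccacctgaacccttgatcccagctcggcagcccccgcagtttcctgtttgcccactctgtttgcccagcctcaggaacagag
Apoa4, chr9:46240594-46240695: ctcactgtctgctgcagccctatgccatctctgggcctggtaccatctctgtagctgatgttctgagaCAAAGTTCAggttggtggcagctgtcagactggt
Apoa5, chr9:46268358-46268607: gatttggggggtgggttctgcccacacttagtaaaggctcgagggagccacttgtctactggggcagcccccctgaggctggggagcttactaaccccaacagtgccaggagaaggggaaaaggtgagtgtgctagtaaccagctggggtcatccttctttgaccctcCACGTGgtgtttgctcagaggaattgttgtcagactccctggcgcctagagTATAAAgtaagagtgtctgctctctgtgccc
Apob, chr12:7977427-7977647: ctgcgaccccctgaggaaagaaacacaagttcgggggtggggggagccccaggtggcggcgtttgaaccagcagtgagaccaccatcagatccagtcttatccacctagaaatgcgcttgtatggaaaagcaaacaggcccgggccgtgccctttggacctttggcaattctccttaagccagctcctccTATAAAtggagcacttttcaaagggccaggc

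The motifs were searched on both strands over the whole windows, and a match is only a description of letters. The 8 genes held 12 windows, so a count of genes is not the same measure as a share of windows. TATAAA, the TATA box, was in the windows of 4 of the 8 genes, among them Apob and Apoa5. It was in 5 of the 12 windows and in 13.6% of the 32851 mouse promoter windows. CACGTG, an E box, was in those of Apoa5 alone among the 8 genes and in 7.15% of all windows. AGGTCA, a core letter group of nuclear receptor sites, was in those of Apoa2 and Apoc2 (16.3% of all), as was a direct repeat of it with 1 base between and up to 2 mismatches (3.86%). GTTAAT, part of the HNF1 site, was in those of Apoc2 and Apoe (7.10%). CAAAGTCCA (0.475%), a form of the HNF4 site, and TGACGTCA (1.79%), the CRE, were in none. The printed Apoa4 promoter holds CAAAGTTCA, another form of the HNF4 site, which was added after the sequences were seen and is in 0.390% of all windows.

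The levels of the genes are compared per kb of exon. In young ND, Apoa2 stood first at 10243 ± 445 CPM per kb (SD, n = 6), then Apoe at 9070.1 ± 249.3 and Apoa1 at 6553 ± 680. Each of these 3 had a range over its 6 mice that did not overlap that of the next. Apoc1 followed at 3285 ± 372 and Apoc3 at 1315 ± 189, again without overlap. Apob at 548 ± 93.1 and Apoa5 at 511 ± 77.4 overlapped and could not be ordered, as could not Apoa4 at 89.3 ± 47.5 and Mttp at 70.1 ± 6.15. Apoc2 stood last at 2.66 ± 0.838 CPM per kb, a level that covers only reads assigned to it in spite of the overlap with Gm44805. It had 1 count in mouse 2 of old HFD, the mouse with the high short mRNAs, and 9 to 55 counts in the other mice. In the other groups the ranges of Apoa2 and Apoe, or of Apoa2 and Apoa1, also overlapped. In old HFD, Apoa1 at 9981 ± 3162 CPM per kb stood above Apoe at 9558 ± 1745 in the order of means, but their ranges overlapped. Summed over the 10 genes, the share of all counts in young mice was 4.55% ± 0.211 (SD, n = 6) on ND and 4.99% ± 0.70 on HFD, and in old mice it was 4.19% ± 1.04 on ND and 5.18% ± 0.923 on HFD. These shares overlapped between all groups.

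**Figure D1:**
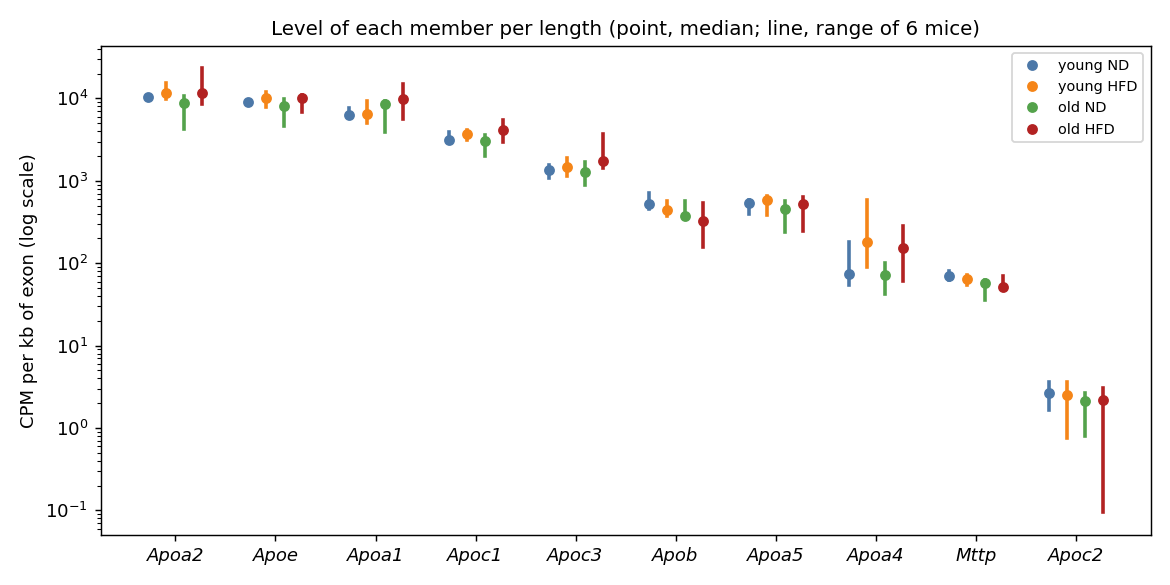
CPM per kb of exon (log scale) of each gene in the 4 groups, ordered by the mean in young ND; points are medians and lines the range of 6 mice. Apoa2, Apoe and Apoa1 had the 3 highest means in every group, at 10243, 9070.1 and 6553 CPM per kb in young ND. The mean of Apob was 548 in young ND and 327 in old HFD. Apoc2, by the reads assigned to it, was lowest in every group.

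The first comparison asked how these genes responded to HFD in young mice. Apoa4 was the 1 gene of the 10 called, 2.76-fold higher, while the HDL genes, the VLDL genes and the regulators of lipolysis did not pass the test. The lowest, median and highest CPM of Apoa4 were 98.8, 135 and 329 in young ND and 165, 329 and 1049.7 in young HFD. Mouse 5 of young HFD was far above the rest, 3 of 6 HFD mice were above all ND mice, and the groups overlapped, with mouse 5 of young ND also high and mouse 4 of young HFD low. The log2 fold change of Apoa4 was 1.46 ± 0.39 (SE), with an adjusted p of 0.039 in edgeR's quasi-likelihood test, and it was 1.74 in batch 1, 1.27 in batch 2 and 1.43 (adjusted p 0.0407) with the length trend removed. With 1 of 10 genes called, the background was 3.5% of all tested genes. The call for Apoa4 was lost when any of mice 1, 2, 3, 4 or 6 of young ND (adjusted p 0.0654 to 0.0950) or mice 1, 3 or 5 of young HFD was left out. Without mouse 5 of young HFD, which also had the highest Kupffer cell, endothelial and stellate sums of its group (211, 338 and 290 CPM), the log2 fold change was 1.05 (adjusted p 0.135 by edgeR). Without mouse 1 the adjusted p was 0.0580 and without mouse 3 it was 0.0831. The part of other cells in the value was not tested.

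The other genes of the chromosome 9 cluster had small fitted changes in young mice. Log2 fold changes and approximate 95% intervals were 0.02 (-0.37 to 0.41) for Apoa1, 0.17 (-0.26 to 0.60) for Apoc3 and 0.13 (-0.26 to 0.52) for Apoa5. The log2 ratio of Apoa4 to each neighbour in each mouse is given as a description with no test, since Apoa4 was taken because it was called. The ratio of Apoa4 to Apoa1 was higher by 1.30 in young HFD, at -4.47 ± 0.72 (SD, n = 6) against -5.77 ± 0.65. The ratio to Apoc3 was higher by 1.16 and that to Apoa5 by 1.19. In each of the 3 ratios 3 or 4 of 6 HFD mice were above all ND mice, and without mouse 5 of young HFD the differences were 1.10, 0.93 and 0.94. The differences were larger in batch 1 (1.80, 1.49 and 1.54) than in batch 2 (0.80, 0.83 and 0.85).

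The remaining genes in young mice did not pass the test. Log2 fold changes were -0.24 ± 0.20 (SE) for Apob, -0.13 ± 0.12 for Mttp, 0.21 ± 0.21 for Apoa2, 0.11 ± 0.17 for Apoe, 0.16 ± 0.15 for Apoc1 and -0.22 ± 0.44 for Apoc2, with adjusted p from 0.602 to 0.841 for 5 of them by edgeR and 0.544 for Apob. Apoe varied more among young HFD mice, 16726 to 25627 CPM, than among young ND mice, 18561 to 19936. With the exception of Apoc2, the approximate 95% intervals of these genes did not reach a change of 1 on the log2 scale.

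**Figure D2:**
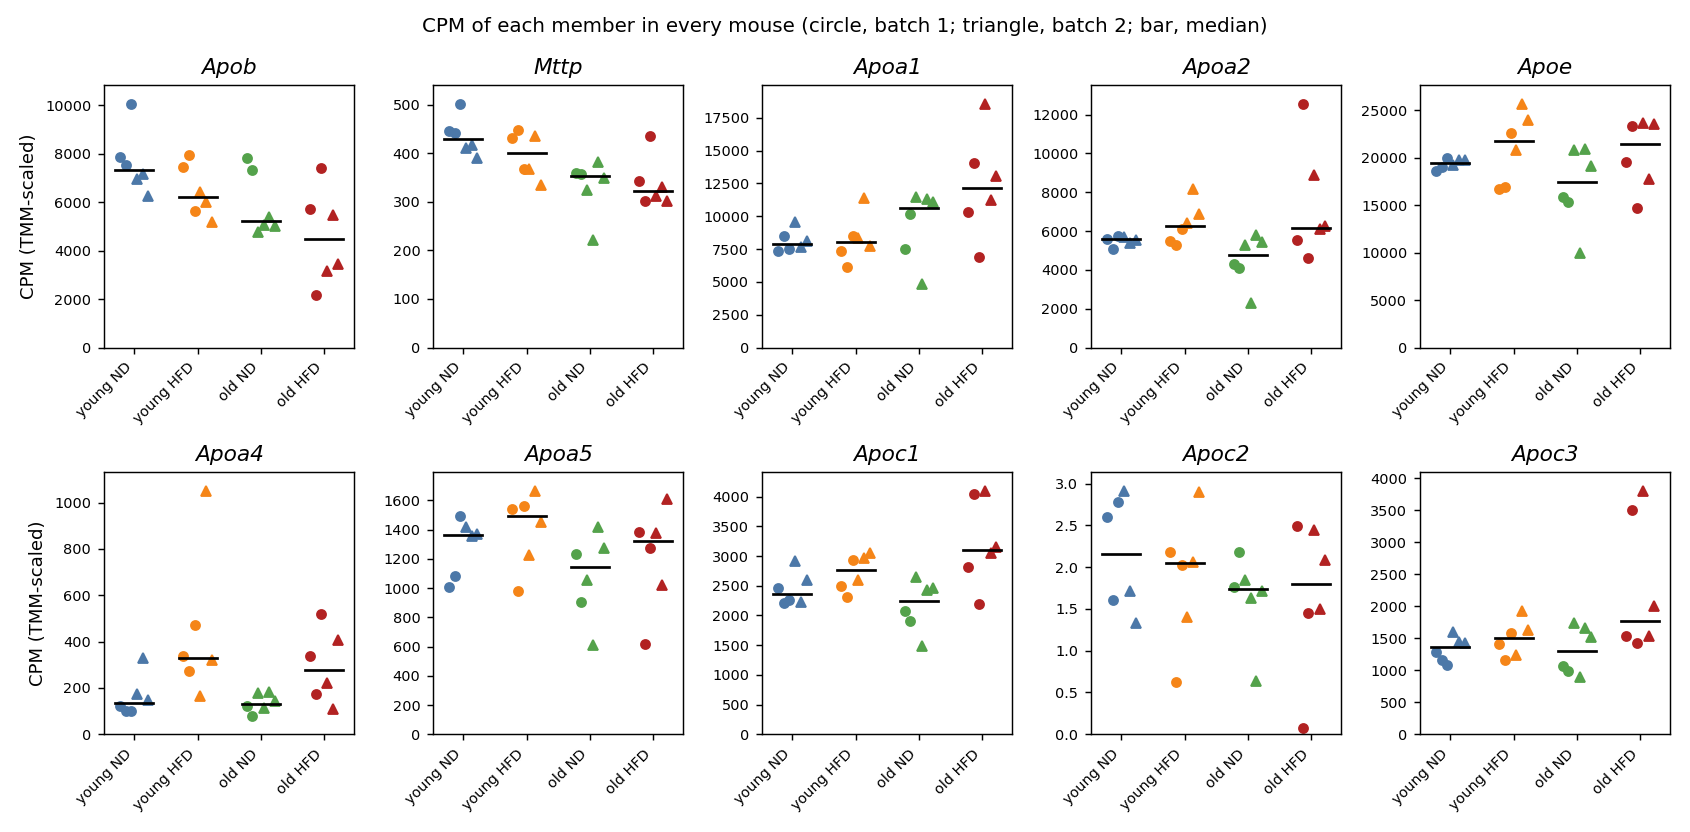
CPM of the 10 genes in every mouse, with circles for batch 1, triangles for batch 2 and bars for medians of 6 mice. Apoa4 was higher in most HFD mice of each age, 2 old HFD mice stood high for Apoc3 and Apoc1, and Apob was lowest in old HFD.

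The same diets were then compared in old mice. Apoc3, the inhibitor of triglyceride clearance, and Apoc1 rose in old HFD over old ND, by 1.84-fold and 1.52-fold. Apoc3 was 896, 1296 and 1740 CPM (lowest, median, highest) in old ND and 1433, 1775 and 3802 in old HFD. Mice 2 and 4 of old HFD, at 3505 and 3802 CPM, were far above the others, and 3 of 6 were above all old ND mice. The log2 fold change of Apoc3 was 0.88 ± 0.22 (SE; adjusted p 0.0324 by edgeR), with 1.02 in batch 1 and 0.77 in batch 2.

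Apoc1 was 1481, 2250.1 and 2646 CPM in old ND and 2200, 3104 and 4094 in old HFD. Of the old HFD mice 5 of 6 were above all old ND mice, and mouse 3 lay within their range. Its log2 fold change was 0.60 ± 0.15 (adjusted p 0.0309 by edgeR), with 0.55 in batch 1 and 0.62 in batch 2. With 2 of 10 genes called, the background was 3.01% of tested genes. Apoc4, the gene between Apoc1 and Apoc2 on chromosome 7 and no member of the 10, rose as well, by 1.04 ± 0.27 on the log2 scale (adjusted p 0.0345), from 422 ± 102 CPM (SD, n = 6) to 848 ± 534.

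The calls of Apoc1 and Apoc3 did not hold when the trend with exon length was removed, while Apoc4 kept its call (0.98, adjusted p 0.0345 by edgeR). Apoc4 too was highest in mice 2 and 4 of old HFD (1799 and 1147 CPM, where the other 4 were at 376 to 646), and it lost its call in 6 of 24 fits that left out 1 mouse, with 0.63 (adjusted p 0.0699) without mouse 2 and 0.96 (0.0679) without mouse 4 of old HFD, and adjusted p of 0.0501 to 0.0930 without mouse 1, 2, 4 or 6 of old ND. Apoc1 has 744 exon bases and Apoc3 has 1014, and the median log2 fold change of all 807 tested genes under 1000 bases was 0.45 in this comparison. It was 0.18 for genes of 1000 to 1999 bases and -0.14 for those of 8000 or more. With the trend removed, Apoc1 was at 0.28 (adjusted p 0.196 by edgeR) and Apoc3 at 0.58 (adjusted p 0.0598). Leaving out mouse 1 or 2 of old ND or mouse 2 or 4 of old HFD also ended both calls, with adjusted p of 0.0553 to 0.0809 for Apoc1 and 0.0717 to 0.0905 for Apoc3. Without mouse 2 of old HFD, Apoc3 was at 0.67 and Apoc1 at 0.50. Whether RNA length or quality differed between the preparations was not tested.

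Apoa4 did not pass the test in old mice, at 1.25 ± 0.39 (SE) on the log2 scale and an adjusted p of 0.0736 by edgeR, though it did by DESeq2 (0.0396). Its CPM was 77.5, 132 and 184 (lowest, median, highest) in old ND and 109, 279 and 518 in old HFD. Of the old HFD mice 4 of 6 were above all old ND mice, and mouse 5 of old HFD lay low. Batch 1 alone gave 1.74, batch 2 alone 0.68, and the fit without the length trend 1.18. The log2 ratios of Apoa4 to Apoa1, Apoc3 and Apoa5 were higher in old HFD by 0.59, 0.24 and 0.83, with 1.49, 0.73 and 1.72 in batch 1 and -0.12, -0.19 and 0.16 in batch 2.

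Apoa2 was at 0.71 ± 0.22 (adjusted p 0.0653 by edgeR) in old mice and did not pass the test, though it did by DESeq2 (0.0144). DESeq2 called 4 of the 10 genes here and 8.35% of all genes. Its CPM was 2290, 4779 and 5788 in old ND and 4599, 6171 and 12522 in old HFD, with mouse 2 of old HFD far above the others. With the length trend removed, Apoa2 was at 0.26. Apoa1 was at 0.42 ± 0.20 and Apob at -0.42 ± 0.20, with adjusted p of 0.224 and 0.222, and neither passed. Apoe was at 0.29 ± 0.17, Apoa5 at 0.19 ± 0.20, Mttp at -0.01 ± 0.12 and Apoc2 at 0.04 ± 0.46. For Mttp the approximate 95% interval was -0.25 to 0.23.

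Age was compared next, first on ND. None of the 10 genes was called in old ND against young ND by edgeR, where the background was 8.5% of tested genes, and 1 of the 10, Mttp, had an unadjusted p under 0.05 (0.00635), beside 22.2% of tested genes. Under DESeq2, 1 of the 10 was called, again Mttp (adjusted p 0.0356), beside 9.19% of genes. The CPM of Mttp was 392, 430.1 and 501 (lowest, median, highest) in young ND and 223, 354 and 383 in old ND. All 6 old mice lay below all 6 young mice, the 1 case among the 10 genes and 5 pairs of groups in which ranges did not overlap. Over all tested genes the ranges did not overlap for 3.8% in this comparison, 4.83% in young HFD against young ND, 1.26% in old HFD against old ND, 0.802% in old HFD against young HFD and 7.26% in old HFD against young ND. The log2 fold change was -0.36 ± 0.12 (SE) with an adjusted p of 0.0652 by edgeR, and it was -0.35 in each batch alone and -0.34 (adjusted p 0.0583) with the length trend removed. Without mouse 4 of old ND it was -0.26 (adjusted p 0.172). Mouse 4 of old ND, which had the highest sums of other cells' markers, had the lowest Mttp, and the part of those cells was not tested. In this comparison 10 of 10 Kupffer cell and macrophage, 5 of 8 endothelial and 7 of 8 stellate cell and fibroblast markers were higher in old ND.

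The other genes had log2 fold changes from -0.42 (Apoc2) to 0.17 (Apoa1) in old ND against young ND. Apob was at -0.32 ± 0.20 (SE), with 4 of 6 old mice below all young ND mice, and its median was 5237 CPM against 7351. That difference was -0.14 in batch 1 and -0.43 in batch 2. Apoa1, Apoa2 and Apoe were more spread in old ND than in young ND, with SDs of 2684, 1283 and 4187 CPM against 841, 239 and 533. Without mouse 4 of old ND these SDs were 1653, 746 and 2673 CPM.

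On HFD, 0 of the 10 genes were called between old and young mice by edgeR, with a background of 2.24%, and 3 had an unadjusted p under 0.05, beside 21% of tested genes. They were Apoa1 at 0.58 ± 0.20 (SE; adjusted p 0.121), Apoc3 at 0.63 ± 0.22 (adjusted p 0.117) and Apob at -0.50 ± 0.20 (adjusted p 0.158). DESeq2 called 1, Apoa1 (adjusted p 0.0446), and 5.52% of all genes. With the length trend removed, the changes were 0.37, 0.32 and -0.43. The CPM of Apoa1 was 6150.0, 8042 and 11380 (lowest, median, highest) in young HFD and 6889, 12120 and 18513 in old HFD, with 3 of 6 old mice above all young ones. Apoa4 was at -0.50 ± 0.38, and its ranges of 165 to 1049.7 CPM in young HFD and 109 to 518 in old HFD overlapped.

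**Figure D3:**
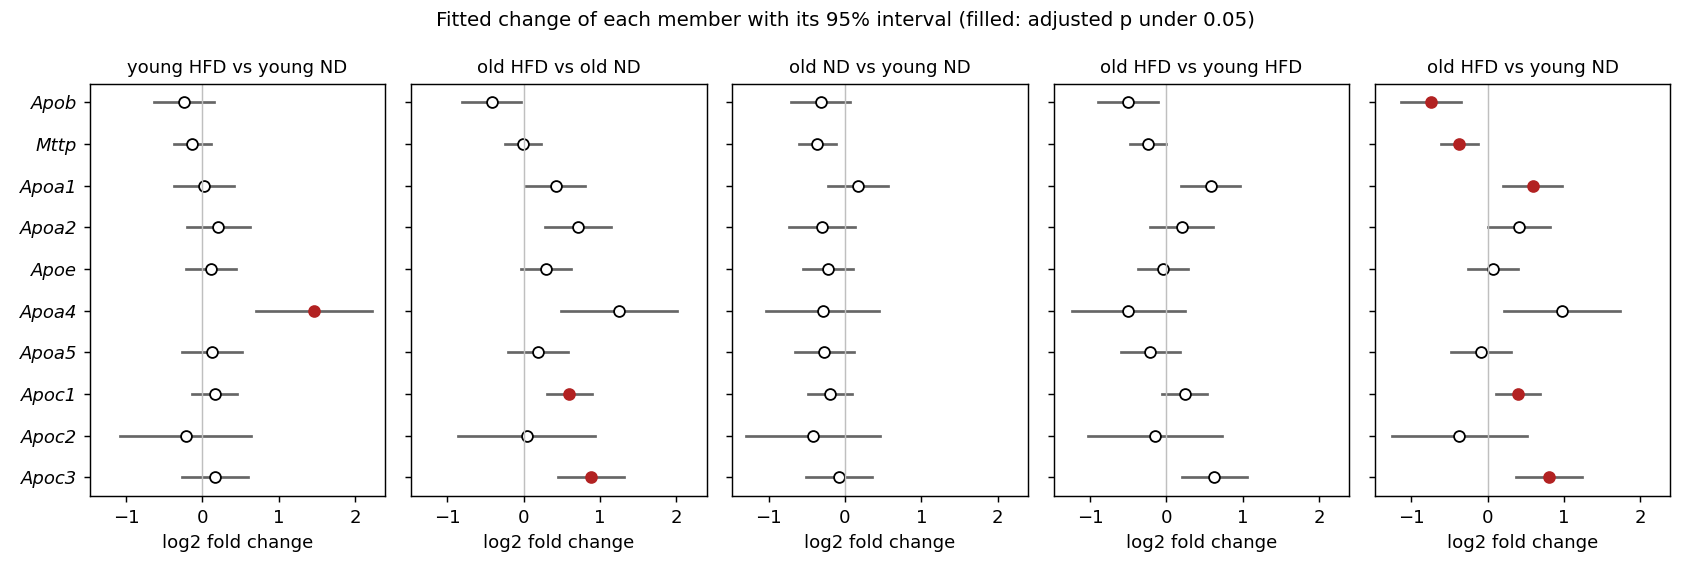
Fitted log2 fold change of each gene in 5 comparisons, with approximate 95% intervals from 24 mice in 1 model; filled points passed an adjusted p of 0.05. Filled points are Apoa4 in young HFD against young ND, Apoc1 and Apoc3 in old HFD against old ND, and Apob, Mttp, Apoa1, Apoc1 and Apoc3 in old HFD against young ND.

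Old HFD against young ND, the pair of groups that differ in both age and diet, gave the most calls. Apob and Mttp fell, to 0.597 and 0.776 of their young ND levels, and Apoa1, Apoc1 and Apoc3 rose, by 1.51-fold, 1.32-fold and 1.74-fold. These 5 of 10 genes stand beside a background of 30.2% of tested genes in this comparison.

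Apob was 6271, 7351 and 10044 CPM (lowest, median, highest) in young ND and 2172, 4475 and 7398 in old HFD. Of the old HFD mice 5 of 6 were below all young ND mice, mice 2, 4 and 6 were lowest, and mouse 3 lay inside the young range. Its log2 fold change was -0.74 ± 0.20 (SE; adjusted p 0.00883 by edgeR), with -0.75 in batch 1 and -0.74 in batch 2. It kept the call in each of 24 fits that left out 1 mouse (-0.86 to -0.59) and with the length trend removed (-0.59, adjusted p 0.0119). The median of tested genes with 8000 or more exon bases was -0.12.

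Mttp was 392, 430.1 and 501 CPM in young ND and 301, 322 and 437 in old HFD. Again 5 of 6 old HFD mice were below all young ND mice and mouse 3 was inside their range. Its fitted log2 change was -0.37 ± 0.12 (adjusted p 0.0238 by edgeR), with -0.39 in batch 1 and -0.36 in batch 2. The call was lost without mouse 3 of young ND (adjusted p 0.0516), without mouse 4 of old HFD (0.0554) and with the length trend removed (-0.25, adjusted p 0.0924).

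Apoa1 was 7319.5, 7861 and 9566 CPM in young ND and 6889, 12120 and 18513 in old HFD. Of the old HFD mice 5 of 6 were above all young ND mice and mouse 3 was below them. Its fitted log2 change was 0.59 ± 0.20 (adjusted p 0.0318 by edgeR), with 0.39 in batch 1 and 0.77 in batch 2. It was lost without mouse 1, 3, 5 or 6 of young ND or mouse 2 or 4 of old HFD (adjusted p 0.0538 to 0.0779), and with the length trend removed (0.34, adjusted p 0.160).

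Apoc3 was 1087, 1357 and 1598 CPM in young ND and 1433, 1775 and 3802 in old HFD. Mice 2, 4 and 6 of old HFD were above all young ND mice, and the other 3 were within their range. The fitted change, on the log2 scale, was 0.80 ± 0.22 (adjusted p 0.00993 by edgeR), with 0.84 in batch 1 and 0.73 in batch 2, and the call was kept in all 24 fits that left out 1 mouse. With the length trend removed it was 0.44 (adjusted p 0.0532).

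Apoc1 was 2203, 2359 and 2914 CPM in young ND and 2200, 3104 and 4094 in old HFD. Of the old HFD mice 4 of 6 were above all young ND mice and mouse 3 was below them. On the log2 scale the change was 0.40 ± 0.15 (adjusted p 0.0455 by edgeR), and 17 of 24 fits that left out 1 mouse lost the call, mostly by a small step (adjusted p 0.0509 to 0.133). The largest step came without mouse 2 of old HFD (0.29). With the length trend removed Apoc1 was at -0.01 (adjusted p 0.963).

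Exon length ran alongside this comparison as a whole. The median log2 fold change was 0.68 over the 807 tested genes under 1000 exon bases, 0.25 over those of 1000 to 1999, 0.08 over those of 2000 to 3999, -0.04 over those of 4000 to 7999 and -0.12 over those of 8000 or more. The fitted changes of Apoa2 (0.41) and Apoc1 (0.40) were thus below the median of genes under 1000 bases, while Apob was below that of the longest class. With the trend removed, 1 of the 10 genes was called, Apob, beside 28.3% of all tested genes. Marker genes of other cells differed too, with 9 of 10 Kupffer cell and macrophage, 8 of 8 endothelial and 6 of 8 stellate cell and fibroblast markers higher in old HFD. Mouse 2 of old HFD, which had the lowest Apob, had the lowest sums of these 3 lists in its group (66.3, 28.7 and 36.6 CPM). Mice 4 and 6, next in Apob from the lowest, had the highest, at 520.5 and 679 CPM of Kupffer cell, 413.5 and 627 of endothelial and 423 and 400.4 of stellate cell markers. The part of other cells was not tested.

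**Figure D4:**
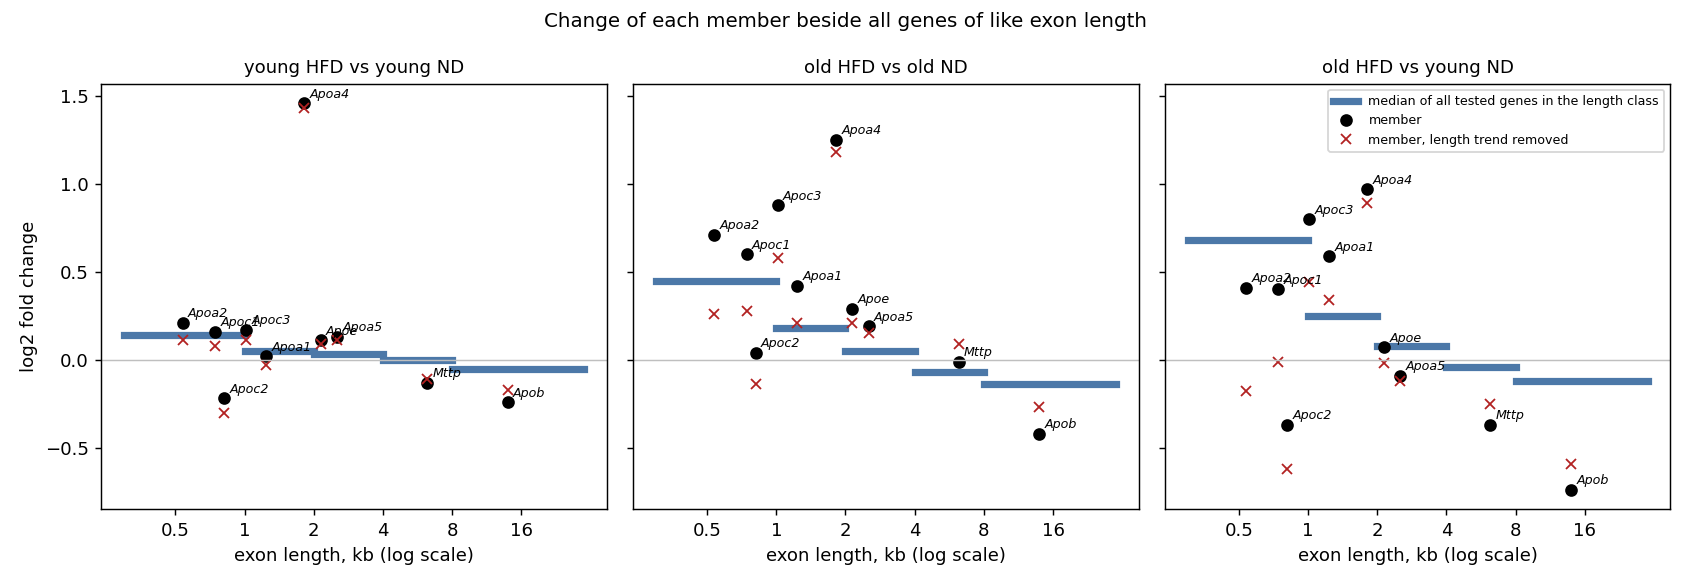
Log2 fold change against exon length in kb (log scale) in 3 comparisons; bars are medians of all tested genes in 5 length classes, points the 10 genes and crosses the same genes with the length trend removed. In old HFD against young ND the bars step from 0.68 down to -0.12, and Apob stays at -0.59 with the trend removed.

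**Figure D5:**
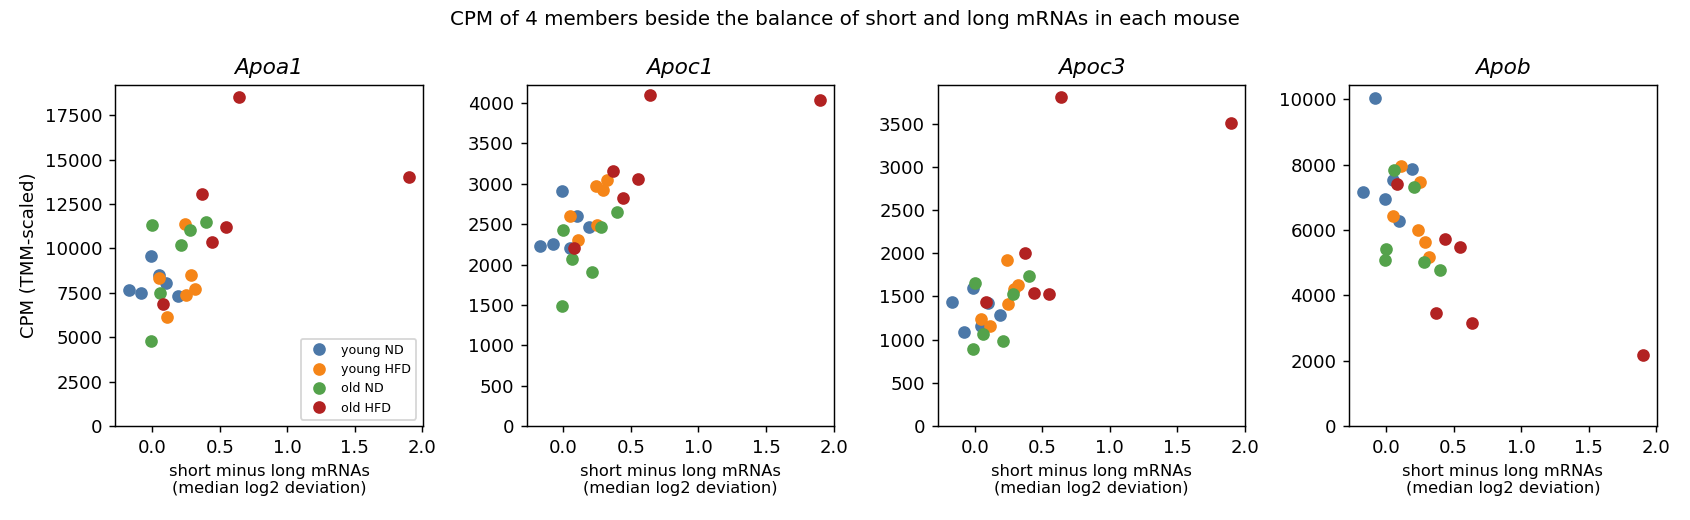
CPM of 4 genes against the median log2 deviation of short minus long mRNAs in each of 24 mice, coloured by group. Mouse 2 of old HFD lies at 1.90, and mouse 4, next at 0.64, also had high Apoc1 and Apoc3 and low Apob, while mouse 5, at 0.55, was at 1531 CPM of Apoc3 and 5491 of Apob.

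The remaining genes were not called in old HFD against young ND. Apoa4 was at 0.97 ± 0.39 (SE; adjusted p 0.0603 by edgeR), with 1.65 in batch 1 and 0.19 in batch 2. Apoa2 was at 0.41 ± 0.21, Apoe at 0.07 ± 0.17, Apoa5 at -0.09 ± 0.20 and Apoc2 at -0.37 ± 0.45. For Apoe, the gene with the most counts of the 10, the approximate 95% interval was -0.26 to 0.40.

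The difference in the response to HFD between ages was tested as an interaction. No gene of the 10 was called, nor any of the 13583 tested, a background of 0%, although 1247 genes had an unadjusted p under 0.05 and DESeq2 called 7 in all. Of the 10, Apoc3 at 0.71 ± 0.31 (SE; unadjusted p 0.0323, adjusted p 0.531) and Apoc1 at 0.45 ± 0.21 (unadjusted p 0.0459, adjusted p 0.537) had an unadjusted p under 0.05 by edgeR, as did 9.18% of all tested genes. With the length trend removed they were at 0.47 and 0.20. For Apoa4 the interaction was -0.21 ± 0.54, with an approximate 95% interval of -1.27 to 0.85. The calls for Apoa4 in young mice and for Apoc1 and Apoc3 in old mice are therefore not shown to differ by age.

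Other genes of lipoprotein metabolism were described from lists of the same pathway. Their counts of calls stand beside 3.5% of all tested genes in young HFD against young ND, 3.01% in old HFD against old ND, 8.5% in old ND against young ND, and 30.2% in old HFD against young ND, where 17.3% rose and 12.9% fell. Of the 72 calls in these lists over all comparisons, 39 were lost in at least 1 of 24 fits that left out 1 mouse and 33 were kept in all, and the number of those fits that lost it is given beside most of the calls named. Of 15 other apolipoprotein genes tested, 1 rose and 1 fell in young HFD, 4 rose in old HFD against old ND, 3 rose in old ND against young ND, and 8 rose in old HFD against young ND. Their median log2 fold change in the last comparison was 0.49, where that of all tested genes was 0.04. The median of all tested genes there was 0.68 under 1000 exon bases and -0.12 at 8000 or more. The exon lengths of these 15 genes were not matched to those of all genes. The 8 that rose include Apol9a, Apol9b and Apol10b, named below. Apof, an inhibitor of lipid transfer, rose by 0.56 ± 0.12 (SE; adjusted p 0.0129) in old HFD against old ND and by 0.54 ± 0.11 (adjusted p 0.00183) against young ND. Of these calls the first was lost with the length trend removed (0.36, adjusted p 0.0815) and the second held (0.32, adjusted p 0.0393), and both were kept in all 24 fits. Apon rose by 0.39 ± 0.11 (adjusted p 0.0493) in young HFD and by 0.46 ± 0.11 (adjusted p 0.0269) in old HFD against old ND, and both calls were lost with the length trend removed (0.37 and 0.34, adjusted p 0.0745 and 0.111) and in 17 and 3 of the 24 fits. Apom, which carries sphingosine-1-phosphate on HDL, fell by 0.63 ± 0.17 in young HFD (adjusted p 0.0450), from 190.1 ± 44.9 CPM (SD, n = 6) to 124 ± 31.5, a call lost in 17 of the 24 fits (adjusted p up to 0.105), and was at -0.15 ± 0.17 in old mice on HFD. Apoh rose by 0.52 ± 0.15 in old HFD against old ND (adjusted p 0.0486), a call lost with the length trend removed (0.37, adjusted p 0.101) and in 19 of the 24 fits. The immune-type genes Apol9a and Apol9b, which are close copies whose reads may be shared, rose in old ND by 1.69 ± 0.36 and 1.06 ± 0.27. Both kept their calls in all fits, but without mouse 3 of old ND they were at 1.06 and 0.66 (adjusted p 0.0118 and 0.0360). Apol10b rose there by 4.31 ± 1.16 from a mean of only 0.0494 CPM, and lost its call in 4 of the 24 fits, with 3.34 (adjusted p 0.0870) without mouse 4 of old ND. In this comparison 10 of 10 Kupffer cell and macrophage and 5 of 7 leukocyte markers tested were higher, and their part in these values was not tested.

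Of 30 genes of VLDL assembly and secretion, 2 fell in young HFD, 1 fell in old HFD against old ND, and 10 fell and 1 rose in old HFD against young ND, with a median of -0.16. The 11 called of 30 are near the 30.2% of all tested genes. Sort1, the sorting receptor that binds Apob, fell by 1.68 ± 0.30 (SE) on the log2 scale in young HFD (adjusted p 0.00314), from 27.4 ± 5.13 CPM (SD, n = 6) to 8.72 ± 3.14. It fell by 1.26 ± 0.30 in old HFD against old ND (adjusted p 0.0252), at -2.46 in batch 1 and -0.47 in batch 2, and lost this call without mouse 2 of old ND (-0.87, adjusted p 0.105) or mouse 2 of old HFD (-1.12, adjusted p 0.0537). A1cf, the cofactor that guides editing of the Apob mRNA, fell by 1.55 ± 0.31 in old HFD against young ND (adjusted p 0.00133), from 142 ± 51.9 to 47.5 ± 29.0 CPM. Cidec, a lipid droplet protein, rose there by 1.42 ± 0.34. Vmp1, needed for lipoprotein release, fell by 0.41 ± 0.11 in young HFD (adjusted p 0.0380), a call lost in 10 of the 24 fits. Of the calls of Sort1 in young HFD, A1cf and Cidec, 0 were lost. Cideb and Tm6sf2, which act on VLDL lipidation, passed in no comparison. Tm6sf2 was at -0.64 ± 0.25 in old HFD against old ND (adjusted p 0.142), and Cideb was at -0.54 ± 0.20 in old HFD against young HFD (adjusted p 0.130).

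The list of 16 genes of lipolysis and remodelling had 1 rise in young HFD, 0 calls in old HFD against old ND (edgeR), and 2 rises and 2 falls in old HFD against young ND. Lpl, the lipase on which Apoc2, Apoc3 and Apoa5 act, rose by 2.64 ± 0.62 (SE) in old ND (adjusted p 0.00962), from 4.78 ± 2.61 CPM (SD, n = 6) to 31.2 ± 32.4, a call kept in all 24 fits. Macrophages also make Lpl, their markers were higher in the same comparison, and their part in the value was not tested. Lipg, the endothelial lipase, rose by 1.10 ± 0.28 in young HFD (adjusted p 0.0312), a call lost in 7 of the 24 fits without 1 mouse. The median log2 fold change of 8 endothelial markers was 1.42 there, with 1 called higher, and their part was not tested. Gpihbp1, the endothelial anchor of Lpl, rose by 1.47 ± 0.48 in old HFD against young ND (adjusted p 0.0251), at 0.32 in batch 1 and 2.23 in batch 2. The call was lost in 5 of the 24 fits, with an adjusted p of 0.0903 without mouse 6 of old HFD, which had the highest endothelial sum of its group, and 8 of 8 endothelial markers were higher in this comparison. Pcsk6 fell by 0.68 ± 0.17 in old HFD against young HFD, a call lost in 9 of the 24 fits. Pltp passed in no comparison, and was at -1.15 ± 0.42 in old HFD against old ND (adjusted p 0.118).

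Of 17 receptor and efflux genes, 3 rose and 1 fell in young HFD, 1 rose in old HFD against old ND, and 5 rose and 3 fell in old HFD against young ND, beside 3.5%, 3.01% and 30.2% of all tested genes. Vldlr, the VLDL receptor, rose by 2.47 ± 0.40 (SE) in young HFD (adjusted p 0.00118) and by 1.82 ± 0.41 in old HFD against old ND (adjusted p 0.0202), where it was at 2.35 in batch 1 and 0.92 in batch 2. The first of these calls was kept in all 24 fits without 1 mouse and the second was lost in 1. Its level in young mice was low, 7.75 ± 3.78 CPM (SD, n = 6) on HFD against 1.56 ± 0.980 on ND. Cd36, a fatty acid transporter, rose by 1.20 ± 0.26 in young HFD (adjusted p 0.0149), and Lrp2 fell by 2.18 ± 0.48 (adjusted p 0.0169), with 0 and 1 of the 24 fits losing the call. Mylip, a ubiquitin ligase, rose by 2.04 ± 0.48 in young HFD (adjusted p 0.0204) and by 1.87 ± 0.47 in old ND (adjusted p 0.0157), from 2.09 ± 2.19 CPM (SD, n = 6) in young ND to 6.98 ± 6.11 and 8.05 ± 7.66. The call in young HFD was lost in 5 of the 24 fits (adjusted p up to 0.0571). In young HFD, markers of other cells had median log2 fold changes of 2.15 (Kupffer cell and macrophage), 1.42 (endothelial) and 1.64 (stellate cell and fibroblast). Of these, 1 of 10, 1 of 8 and 2 of 8 were called higher, and their part in these values was not tested. In old ND, Abcg1 rose by 1.99 ± 0.53, from 1.44 ± 0.876 to 7.12 ± 7.48 CPM, and Sorl1 by 1.35 ± 0.39, from 1.48 ± 0.508 to 3.73 ± 1.29 CPM. Without mouse 4 of old ND, which had the highest sums of other cells' markers, all 3 calls in old ND were lost (Mylip 1.51, Abcg1 1.57 and Sorl1 1.15, adjusted p 0.0698, 0.0805 and 0.0992 by edgeR). Lsr rose by 0.64 ± 0.15 in old HFD against young HFD (adjusted p 0.0321), a call lost in 7 of the 24 fits. Scarb1, the receptor for HDL, passed in no comparison, with log2 fold changes of -0.12 to 0.22 over the 5 pairs of groups.

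Of 33 transcription factor genes named for action on these promoters, 2 fell in young HFD, 1 rose in old HFD against old ND, 1 fell in old ND against young ND, and 8 fell and 4 rose in old HFD against young ND. The 12 called of 33 in the last comparison are near the 30.2% of all tested genes. Creb3l3, which acts on Apoa4, Apoa5 and Apoc2, fell by 0.41 ± 0.12 (SE) in old ND (adjusted p 0.0404), from 259 ± 21.4 CPM (SD, n = 6) to 198 ± 41.0. This call was lost in 11 of the 24 fits without 1 mouse, with -0.32 (adjusted p 0.119) without mouse 4 of old ND. It rose by 0.50 ± 0.12 in old HFD against old ND (adjusted p 0.0309), a call lost in 2 of the 24 fits, and was at 0.30 ± 0.12 in young HFD (adjusted p 0.159). Hnf4a, which acts on most of the 10 genes, fell by 0.73 ± 0.18 in old HFD against young ND (adjusted p 0.00534), from 625 ± 48.3 to 378 ± 137 CPM, in all 24 fits without 1 mouse. It was at -0.44 ± 0.18 in young HFD and -0.45 ± 0.18 in old HFD against old ND, neither of which passed. Rora fell by 0.52 ± 0.11 and Ppargc1b rose by 1.29 ± 0.30 in old HFD against young ND, and 0 of the 24 fits lost either call. Ppard fell by 1.91 ± 0.47 in young HFD (adjusted p 0.0264), from 15.1 ± 10.9 to 4.13 ± 0.857 CPM, and Rora fell by 0.43 ± 0.11 (adjusted p 0.0332), a call lost with the length trend removed (-0.36, adjusted p 0.0780). The calls of Ppard and Rora in young HFD were lost in 6 and 9 of the 24 fits.

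Across the 24 mice the genes fell into patterns, described by Pearson's r of log2 CPM with batch means removed, a description over mice that also differed in library depth and in the balance of short and long mRNAs. Apoa2 and Apoc1 (0.92), Apoc1 and Apoc3 (0.90) and Apoa2 and Apoe (0.88) were the most alike. Apob had an r of -0.80 to Apoc3, -0.65 to Apoa1, -0.64 to Apoc1, -0.54 to Apoa2, 0.54 to Apoc2 and 0.66 to Mttp. All of these genes have shorter exons than Apob, and the values of Apoc2 rest on 1 to 55 counts per mouse. The part of exon length in these values of r was not tested. Of genes outside the 10, those most like Apob were Usp47 (0.961), Tent4b (0.961) and Gm18337 (0.960), and those most like Apoc3 were Sec62 (0.943), Asgr1 (0.942) and Apoc4 (0.939). Apoc1 was most like Tmem205 (0.941), C8g (0.934) and Tex261 (0.926), and Apoa2 was most like Cisd1 (0.945), Tex261 (0.941) and Mettl7b (0.940). For Apoa4 they were Mfsd1 (0.880), Kcnk10 (0.877) and Sulf2 (0.860), and for Apoa1 they were Igfbp2 (0.900), Fxyd1 (0.855) and Hemk1 (0.837). Mttp was most like Ugt2b34 (0.903), Aplp2 (0.903) and Abcc3 (0.902), and Apoe was most like Rbp4 (0.911), Ptpmt1 (0.906) and Proc (0.871). For Apoa5 they were Cyp2d22 (0.873), Hsd17b6 (0.864) and Kcnn2 (0.852), and for Apoc2 they included Gm49417 (0.842) and Chrd (0.840).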

How the data were processed

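The authors aligned reads to mm10 with STAR 2.7.3a and deposited whole-number counts per gene made with HTSeq 0.11.2, 1 column per mouse, and the use of strand is not stated. The FPKM table that the authors deposited (37789 genes) came from CuffLinks, with ComBat applied to the batches, and served here for alternatives and for the check of gene lengths given among the other observations. The table columns matched the samples, with 0 left over.

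Counts were tested with edgeR 4.0.16 (R 4.3.3): filterByExpr by group, TMM, 1 model of group and batch over all 24 mice, quasi-likelihood F tests, and Benjamini-Hochberg adjustment over 13583 genes within each of 6 comparisons, at an adjusted p of 0.05. Standard errors are the log2 fold change divided by the square root of F, and intervals of 95% use a normal approximation. Each replicate is a separate mouse, grouped from the labels. Total counts per mouse were 9200332 to 22185069, which limits the precision of genes with few assigned reads. Apoc2 had 1 to 55 assigned counts per mouse, and reads in its overlap with Gm44805 could have been left out. No molecular identifiers are named in the sources used here. Mice of a group differed by more than counting noise in every pair (chi-square per degree of freedom at least 15.2). CPM values are TMM-scaled. Exon lengths and positions came from an earlier GENCODE release of the same build, which held 99.5% of the genes. The test was tried on simulated data. The genes and lists were chosen with earlier results of these data known. All 10 genes are reported in every comparison, and from the other lists the genes named are the 3 called ones with the smallest adjusted p per list and comparison, and 10 more whatever their values, not each with its value in every comparison. The 3 genes most like each of the 10 were taken by Pearson's r. Some genes that these rules name are not reported here. Of the listed markers 1, Tf, had no row under that symbol. The alternatives were edgeR without batch, the replicate block in place of batch, DESeq2 1.42.0, RLE normalization, no count filter, limma 3.58.1 on log2(FPKM + 1) or log2(FPKM + 0.1) and with a mean FPKM of at least 1, each batch alone, only the groups compared, and leaving out each mouse. A fit with the trend of exon length removed per mouse, and a fit without 2 mice, were added after seeing the data. Replicate numbers are shared between groups but belong to different mice. Ratios and figures were made in Python 3.11.15 with pandas 2.3.3, numpy 2.4.6 and matplotlib 3.10.9.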

Additional observations from a re-analysis of the deposited data

Results flagged for a closer look

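Of 40 sets of 6 mice (10 genes in 4 groups), 5 held a mouse whose CPM stood apart from the other 5 by Dixon's test, where chance alone gives about 1 in 20. Apoa4 was high in mouse 5 of young ND (328.6 CPM) and in mouse 5 of young HFD (1049.7 CPM). Apoc2 was low in mouse 5 of old ND (0.6434 CPM, from 9 counts). Mttp was low in mouse 4 of old ND (222.5 CPM) and high in mouse 3 of old HFD (437.0 CPM).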

How the results depend on the processing

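Of the log2 fold changes of the 10 genes in fits that left out 1 mouse, 1351 kept their direction and their side of the threshold, 35 changed direction, 41 lost a call and 13 gained one. Under the other alternatives these numbers were 644, 53, 55 and 12. The number of the 10 genes called depended on the setting. In young HFD against young ND it was 1, and it was 0 without batch, with limma on any FPKM scale and in batch 2 alone. In old HFD against old ND it was 2, and it was 4 with DESeq2, 1 with limma on genes of mean FPKM at least 1 and without mouse 4 of old ND and mouse 2 of old HFD, and 0 without batch, with limma on the other FPKM scales, in either batch alone, with only the groups compared, with the length trend removed and under the replicate block. In old ND against young ND it was 0, and 1 with DESeq2 and under the block. In old HFD against young HFD it was 0, and 1 with DESeq2 and without a count filter. In old HFD against young ND it was 5, and 6 with RLE and without the 2 mice, 4 under the block and without batch, 3 without a filter, 2 with limma on each FPKM scale and with only the groups compared, 1 in batch 1 alone and with the length trend removed, and 0 in batch 2 alone. Leaving out 1 mouse gave 0 to 1 in the young diet comparison, 0 to 4 in the old one, 0 to 1 in each age comparison, 2 to 6 in old HFD against young ND, and 0 for the interaction. Fewer mice enter the fits of 1 batch or of the groups compared. For the rest the cause was not tested.

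The replicate numbers belong to different mice, and the block did not follow a pairing. Deviations of mice with the same number had a mean r of 0.182 (-0.320 to 0.551, 21 of 36 pairs over 0.1), and -0.0467 with batch removed. Of the 24 mice, 7 correlated best with mice of their own number, and 1 did with batch removed. Under the block, Apoc1 had an adjusted p of 0.0654 and Apoc3 of 0.0823 in old HFD against old ND, Apoa1 of 0.0573 and Apoc1 of 0.0825 in old HFD against young ND, while Apoa4 passed there (0.0469), as did Mttp in old ND (0.0431).

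The values that changed sign had not passed the test, except that of Apoc1 in old HFD against young ND. With limma on log2(FPKM + 1), log2(FPKM + 0.1) and mean FPKM at least 1, Apoa1 was at -0.16 in young HFD and -0.07 in old ND, Apoa2 at -0.15 in young HFD, -0.18 in old HFD against young HFD and -0.33 against young ND, Apoe at -0.11 against young ND, and Mttp at 0.01, 0.02 and 0.01 in old HFD against old ND. Mttp there was also 0.02 without batch and with only the groups compared, 0.01 with DESeq2 and RLE, 0.03 under the block and 0.09 with the length trend removed. In batch 1 alone, Apoa1 was at -0.09 and Apoe at -0.04 in young HFD, Apoa5 at -0.01 and Apoc2 at -0.59 in old HFD against old ND, Apoe at 0.01 against young HFD and -0.03 against young ND, and the interactions of Apoa4, Apoa5 and Apoc2 at 0.01, -0.19 and -0.06. In batch 2 alone, Apoc2 was at 0.12 in young HFD and 0.03 in old HFD against young ND, and Apoa2 at -0.03 in old HFD against young HFD. Apoc2 in old HFD against old ND was -0.13 under the block and -0.04 with limma on log2(FPKM + 0.1). With the length trend removed, Apoa1 was at -0.03 in young HFD, Apoc2 at -0.14 in old HFD against old ND, Apoa2 at -0.28 and Apoc1 at -0.09 in old HFD against young HFD, and Apoa2 at -0.18, Apoc1 at -0.01 and Apoe at -0.02 against young ND. Without mouse 4 of old ND and mouse 2 of old HFD, Apoc3 was at 0.01 in old ND, Apoa2 at -0.06 and Apoc2 at 0.11 in old HFD against young HFD, Apoa5 at 0.08 against young ND, and the interaction of Apoe at -0.01. Leaving out 1 mouse, ranges that crossed 0 were -0.03 to 0.07 for Apoa1 in young HFD; -0.14 to 0.29 for Apoc2 and -0.07 to 0.05 for Mttp in old HFD against old ND; -0.37 to 0.01 for Apoa4 and -0.15 to 0.03 for Apoc3 in old ND. They were -0.06 to 0.30 for Apoa2, -0.34 to 0.10 for Apoc2 and -0.11 to 0.02 for Apoe in old HFD against young HFD, -0.17 to 0.04 for Apoa5 and 0.00 to 0.17 for Apoe against young ND, and -0.55 to 0.14 for Apoa4 and -0.07 to 0.18 for Apoa5 in the interaction.

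Calls over all tested genes ranged, outside the fits without 1 mouse, from 9 to 2302 in young HFD against young ND (475 in the main setting), 15 to 1108 in old HFD against old ND (409), 2 to 2053 in old ND against young ND (1155), 0 to 1235 in old HFD against young HFD (304) and 617 to 5013 in old HFD against young ND (4100). Leaving out 1 mouse gave 146 to 998, 84 to 823, 586 to 1592, 40 to 813 and 3314 to 4722 in the same order, so the shares of all tested genes called, set beside the counts of the 10, also move with single mice. For the interaction they were 0 to 587, with 587 when no count filter was used. Under the block the calls were 283 in the young diet comparison, 131 in old HFD against young HFD and 1 for the interaction, and elsewhere they were within 1.5 times the main count. CPM means by the plain library total were within 1 SD of the TMM values for all 40 levels. The approximate 95% interval of Apoc2, with 1 to 55 counts per mouse, was -1.30 to 0.46 on the log2 scale in old ND against young ND, and that of Apoa4 was -1.03 to 0.45.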

Other observations

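The lengths by which the deposited FPKM values had been divided were read from the ratio of CPM to FPKM. For Apob the ratio was 38.3 kb, where its exons sum to 13.9 kb and its whole gene spans 39.2 kb, and for Mttp it was 53.9 kb, where the exons sum to 6.21 kb and the gene spans 55.1 kb. Over 1484 genes with a mean FPKM of at least 1 that span at least 5 times their exons, the median ratio was 0.97 of the gene span and 7.43 times the exon length. Values per exon length were therefore computed from the counts, and the FPKM values were not used to compare levels between genes.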
